A study of Mus musculus with 12 samples.

Results

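The antioxidant enzymes followed here are 10 genes, taken by symbol from the gene column of a table of 23235 genes: the peroxiredoxins Prdx1 to Prdx6, the superoxide dismutases Sod1 and Sod2, the glutathione peroxidase Gpx4 and thioredoxin (Txn1). All 10 were found, were above 0 in all 12 libraries and passed the minimum for testing, a mean FPKM of 1. FPKM is fragments per kilobase of transcript, scaled to library size, so levels of different genes can be compared per length. The libraries hold RNA bound to polysomes, the ribosome-loaded fraction, from mouse oocytes of the C57BL/6 background at postnatal day 21. Wild-type (WT) and Cnot6l-/- (KO) oocytes were compared at 3 stages with 2 libraries in each of 6 groups. GV oocytes, arrested with an intact germinal vesicle, came 48 h after PMSG, a gonadotropin that stimulates follicle growth. MI and MII oocytes, which have resumed meiosis, came after 8 h and 16 h of culture. The labels give no other treatment, do not say which part of Cnot6l is missing, and do not say how the libraries of a group were drawn, so the p-values measure the spread between these libraries, which may be technical. In such bulk samples fewer cells and less RNA per cell cannot be told apart.

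These enzymes work as a chain. Superoxide dismutases turn superoxide into hydrogen peroxide, in the cytosol (SOD1, with copper and zinc) and in mitochondria (SOD2, with manganese). Peroxiredoxins then reduce peroxide with a reactive cysteine, and most of them are in turn reduced by thioredoxin. PRDX1 and PRDX2 act mainly in the cytosol, PRDX3 and PRDX5 in mitochondria (PRDX5 also elsewhere) and PRDX4 in the endoplasmic reticulum, while PRDX6 has a single catalytic cysteine and uses glutathione. GPX4 is a selenoprotein that reduces lipid peroxides in membranes. A fully grown oocyte is transcriptionally silent and carries many mitochondria, so during maturation it makes such enzymes from stored mRNA. CNOT6L is a catalytic subunit of the CCR4-NOT deadenylase, which shortens poly(A) tails and starts the decay of maternal mRNA.

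Several facts about the libraries bear on all values below. Cnot6l was at 16.1 to 68.5 FPKM in the 6 WT libraries and at 6.28 to 23.5 in the 6 KO libraries, with the groups overlapping at GV. Summed FPKM ran from 884142 to 1663871 per library, depth in reads is not known, and the labels name no external standard. Some comparisons shifted as a whole. Over the 11667 tested genes, KO minus WT had a median log2 difference of -0.06 (GV), 1.03 (MI) and 0.81 (MII). The step from GV to MI had a median of -0.87 in WT oocytes and 0.26 in KO oocytes, and the step from MI to MII -0.27 in WT oocytes and -0.59 in KO oocytes. Changes are given as deposited and after median scaling, in which each library is divided by its median ratio over abundant genes. That scaling did not bring every median over all tested genes to 0. For KO minus WT the median was then 0.03 (GV), 0.16 (MI) and 0.29 (MII). For the steps from GV to MI and from MI to MII it was -0.20 and -0.02 in WT, and 0.00 and -0.04 in KO. All 12 oocyte markers (among them Zp3, Gdf9 and Bmp15) were above 0 in every library. The 13 cumulus and granulosa markers summed to 303 and 327 FPKM in WT oocytes at GV, then to 117 and 131 (MI) and 66.5 and 55.4 (MII). Their sums in KO oocytes were 157 and 219 (GV), 178 and 141 (MI) and 87.4 and 127 (MII). Foxl2, which defines granulosa cells, was listed at 0 throughout, and Inha, the highest at GV, had 201 and 239 FPKM in WT GV and was listed at 0 in WT MII. Not all markers fell. Cyp19a1 went from 23.5 and 36.5 (WT GV) to 47.6 and 32.8 (WT MII). Among KO oocytes it went from 8.87 and 17.0 (GV) to 101 and 92.0 (MI). Ptx3 was listed at 0 in every GV library, while the WT MI libraries had 32.1 and 40.2.

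A single peroxiredoxin, Prdx1, came to dominate the set on polysomes as oocytes matured, in both genotypes, while Sod1 and Prdx2 lost their place beside it. Prdx1 (chr4:116358204-116372605, plus strand, mouse build 9) ranked between 18 and 37 among all genes in every library. At WT GV it had 2 near equals, Prdx2 (chr8:87493547-87498212) and Sod1 (chr16:90220987-90226569). Prdx1 made up 35.0 and 35.2% of the summed FPKM of the 10 genes in the WT GV libraries, which grew to 69.4 and 66.9% (WT MI) and to 79.8 and 81.3% (WT MII). In KO oocytes its share began at 31.2 and 28.8% (GV), reached 52.1 and 52.6% (MI) and ended at 71.7 and 70.2% (MII). The share thus grew at each step in both genotypes, and at each stage both KO libraries lay below both WT libraries. Sod1 moved the other way, from 27.9 and 27.0% in WT GV to 4.97 and 3.998% in WT MII, and from 33.9 and 35.7% in KO GV to 12.6 and 13.0% in KO MII. Prdx1, Sod1 and Prdx2 together held 90.1 to 97.3% of the sum in every library. The 10 genes as a whole were 0.951 and 0.952% of all FPKM in the WT GV libraries and 0.699 to 0.779% in the other 10.

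**Figure D1:**
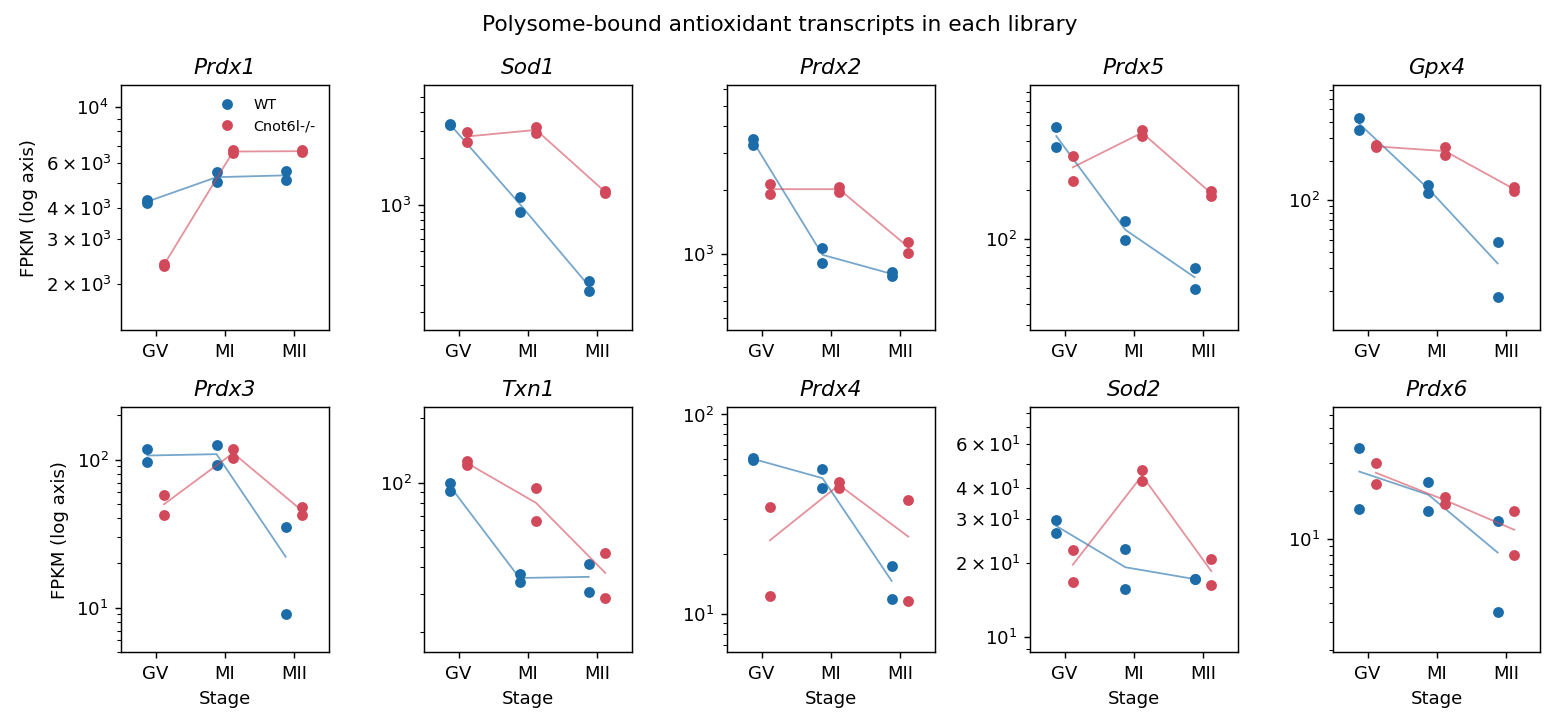
FPKM on a log axis of each of the 10 genes by stage, one panel per gene in order of mean level; each point is 1 library, lines join the means of 2 libraries, blue is WT and red is Cnot6l-/-. Prdx1 climbs between GV and MI in both genotypes as deposited (in WT not with quantile normalization), while the blue points of Sod1, Prdx2, Prdx5 and Gpx4 drop at MI and the red ones stay near their GV level or above it.

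Ratios within a library do not change when all its values are multiplied by 1 factor (quantile normalization does change them), and they showed the same turn. The ratio of Prdx1 to Sod1 was 1.25 and 1.30 in the WT GV libraries, then 5.61 and 4.89 (WT MI) and 16.1 and 20.3 (WT MII). The KO libraries had 0.921 and 0.806 (GV), 2.26 and 2.11 (MI) and 5.67 and 5.41 (MII). The MII ratio in KO thus lay near the MI ratio in WT, and the KO libraries lay below the WT libraries at all 3 stages. The ratio of Prdx1 to Prdx2 began alike, at 1.27 and 1.23 in WT GV and 1.24 and 1.12 in KO GV. It was 5.52 and 5.14 in WT MI against 3.15 and 3.44 in KO MI, and then overlapped at MII, with 6.51 and 6.77 in WT and 6.64 and 5.78 in KO. In this ratio the genotypes were therefore apart at MI alone. Sod1 and Prdx2 kept nearly equal levels in WT GV and WT MI (ratios of 0.942 to 1.05), but in WT MII Sod1 was at 0.406 and 0.333 of Prdx2, against 1.17 and 1.07 in KO MII. These ratios were chosen after values were seen and are given as a description, with no test.

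**Figure D2:**
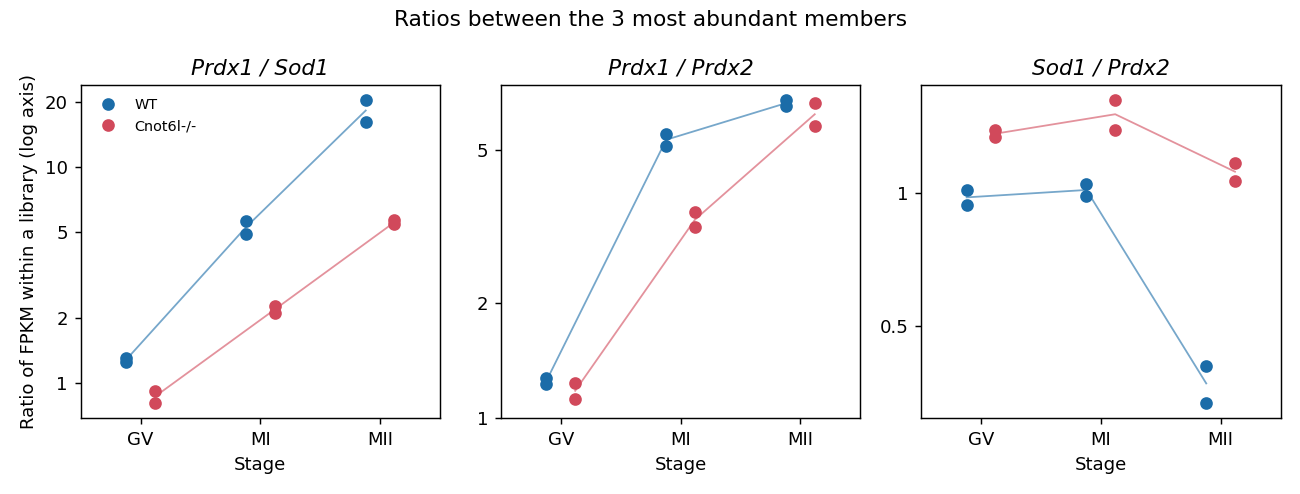
Ratios of FPKM within each library, on log axes, for Prdx1 to Sod1 (left), Prdx1 to Prdx2 (middle) and Sod1 to Prdx2 (right) by stage; points are libraries and lines join the means of 2. Prdx1 to Sod1 reaches 16.1 and 20.3 in WT MII but 5.67 and 5.41 in Cnot6l-/- MII, and Sod1 to Prdx2 falls to 0.406 and 0.333 in WT MII alone among the 6 groups.

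The full order of levels also shifted. In WT GV Prdx1 led, Prdx2 and Sod1 overlapped behind it, and Prdx5 and Gpx4, which overlapped each other, came next. Prdx3 and Txn1, which also overlapped, came lower, followed by Prdx4 and then by Sod2 and Prdx6, which overlapped. In KO GV Sod1 led instead, with both libraries above those of Prdx1, which in turn lay above those of Prdx2. From MI on Prdx1 led in both genotypes. In WT MII Txn1, Gpx4, Prdx3, Sod2, Prdx4 and Prdx6 each overlapped the next in order of mean, although both libraries of Txn1 and of Gpx4 lay above all those of Sod2, Prdx4 and Prdx6.

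The 3′ ends of these transcripts are shown because maternal mRNAs can be held or called into translation through short 3′ motifs: the polyadenylation signal (AATAAA or ATTAAA) and the cytoplasmic polyadenylation element (TTTTAT or TTTTAAT), by which poly(A) tails are lengthened during maturation. The sense strand of the last 100 bases before each gene's end in the authors' table was read from the mouse build 9 genome. The signal or element found is in capitals, with 30 bases for each:
Prdx1, chr4:116372572-116372601: aatctgccaggaATTAAAagtgtgtgccac
Prdx2, chr8:87498181-87498210: ctataggaaaccAATAAAgtattagggaca
Sod1, chr16:90226540-90226569: taccctcaaaccATTAAActgtaatctgaa
Gpx4, chr10:79519154-79519183: ctgccttgtgggAATAAAatgtagaaatgt
Sod2, chr17:13210909-13210938: aggtgagtgttgTTTTATtgtaaaatgcat

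AATAAA was in this window in 6 of the 10 genes, against 64.2% of 11659 tested genes with a window, and ATTAAA in 4 of 10, against 20.75%; a stretch can hold 2 of these motifs that share letters. TTTTAT was in 1 of 10, Sod2, at 59 bases from the end, against 14.6% of tested genes, and TTTTAAT in 0 of 10, against 5.53%. Prdx1, whose share grew, and Prdx2 and Sod1, whose shares fell, were alike in holding neither form of the element in this window. Prdx5 and Prdx6 held no signal of either form there. A match is a description only, and the ends that oocytes use are not known from these files.

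From GV to MI in WT oocytes, polysome-bound transcripts of 5 of the 10 enzymes fell and 1, Prdx1, rose. Differences were tested with limma, a linear model per gene, on log2(FPKM + 1), and are called where the p adjusted over all tested genes is below 0.05. As deposited, limma called 21.7% of all tested genes lower and 3.06% higher in this comparison. Prdx1 had 4177 and 4282 FPKM in the WT GV libraries, and 5046 and 5515 in those of WT MI. Both MI libraries lay above both GV libraries, a log2 difference of 0.32 (SE 0.06, limma adjusted p = 0.00267). After median scaling the rise was 1.15 (adjusted p = 1.4e-07), but with quantile normalization the difference was -0.043 and not called, and a fit of these groups alone missed the threshold (adjusted p = 0.0596).

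Prdx2 fell from 3276 and 3484 FPKM to 913 and 1074, by 1.77 on the log2 scale (SE 0.10, limma adjusted p = 1.9e-06). Sod1 fell from 3330.01 and 3283 to 900.1 and 1129, by 1.71 (SE 0.12, limma adjusted p = 8.6e-06). These 2 cytosolic enzymes therefore dropped to about the same level side by side. Prdx5 (chr19:6981309-6984135) fell from 367 and 489 to 99.5 and 129, by 1.89 (SE 0.24, limma adjusted p = 4.2e-04). With median scaling these 3 were still called lower, by 0.94 for Prdx2, 0.88 for Sod1 and 1.07 for Prdx5. They fell by more than the shift of all genes.

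Gpx4 (chr10:79516255-79519184) went from 426 and 347 FPKM in WT GV to 115 and 129.9 in WT MI, a fall of 1.65 (SE 0.35, limma adjusted p = 0.00726). Txn1 (chr4:57956245-57969283), which recharges the peroxiredoxins, went from 99.8 and 91.7 to 34.0 and 37.35, a fall of 1.40 (SE 0.31, limma adjusted p = 0.00930). Neither was called after median scaling (-0.82 and -0.58, adjusted p = 0.157 and 0.262) or without WT GV replicate 1 (adjusted p = 0.0628 and 0.0630), so a fall beyond the shift was not detectable for them. Prdx3, Prdx4, Prdx6 and Sod2 were not called, with log2 differences of 0.02, -0.32, -0.37 and -0.55. The 95% interval for Prdx3, the mitochondrial peroxiredoxin, ran from -1.08 to 1.12. With median scaling 3 of the 10 were called lower and 1 higher, against 5.98 and 8.25% of tested genes. The median of the 10 differences was -0.97 as deposited, beside -0.87 over all tested genes. The cumulus and granulosa marker sum was also lower in WT MI than in WT GV, and its part in these values was not tested.

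From MI to MII in WT, Sod1 and Gpx4 fell further, Prdx3 and Prdx5 also fell as deposited, and Prdx1 stayed high. Sod1 dropped from 900.1 and 1129 FPKM to 320.2 and 275, by 1.76 (SE 0.12, limma adjusted p = 4.6e-06), after the fall it had already shown from GV to MI. Gpx4 fell from 115 and 129.9 to 18.1 and 47.5, by 2.01 (SE 0.35, limma adjusted p = 0.00220). Both kept their call after median scaling (-1.39 and -1.66). The fall of Gpx4 was -1.34 without WT MII replicate 1 and -2.69 without replicate 2.

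Prdx3 (chr19:60939969-60950441) fell from 91.7 and 126 FPKM to 35.1 and 8.99, by 2.51 (SE 0.49, limma adjusted p = 0.00465). Its MII libraries lay far apart, but both below the MI libraries, and the difference was -3.44 without replicate 1 of MII and -1.59 without replicate 2. Prdx5 fell from 99.5 and 129 to 67.1 and 49.97, by 0.96 (SE 0.24, limma adjusted p = 0.0161). The call for Prdx5 was lost with median scaling (-0.59, adjusted p = 0.106) and when either WT MI replicate 2 or WT MII replicate 2 was left out (adjusted p = 0.1003 and 0.0721), while Prdx3 kept it with median scaling (-2.18).

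Prdx1 was at 5140.3 and 5598 FPKM in WT MII, overlapping its MI libraries, with a log2 difference of 0.02 (95% interval -0.10 to 0.15). Relative to other genes it gained: with median scaling the difference was 0.40 (limma adjusted p = 2.9e-04). Prdx2, at 789.6 and 826.5 in MII, lay just below its MI libraries and was not called (-0.29, adjusted p = 0.0594), but passed with the replicate number as a block (adjusted p = 0.0327) and without WT MI replicate 1 (0.0307). Txn1 was level, at 30.5 and 41.7 against 34.0 and 37.35 (difference 0.00, 95% interval -0.69 to 0.69). The mitochondrial Sod2, at 17.1 and 17.2 in MII against 15.7 and 22.6 in MI, was not called (-0.13, limma adjusted p = 0.878). In all, 4 of the 10 were called lower and 0 higher, against 16.4 and 5.68% of tested genes. At an unadjusted p under 0.05, 6 were lower and 0 higher, beside 2700 and 1218 of the 11667 tested genes. With median scaling 3 were called lower and 1, Prdx1, higher (13.5 and 11.0% of tested genes). A limma fit of the WT MI and WT MII libraries alone called 0 of all tested genes (lowest adjusted p = 0.0582) and so none of the 10 (Sod1 adjusted p = 0.0698). At an unadjusted p under 0.05 that fit had 5 of the 10 and 1780 of all tested genes lower. The calls from MI to MII in WT therefore rest on the spread pooled over all 6 groups.

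**Figure D3:**
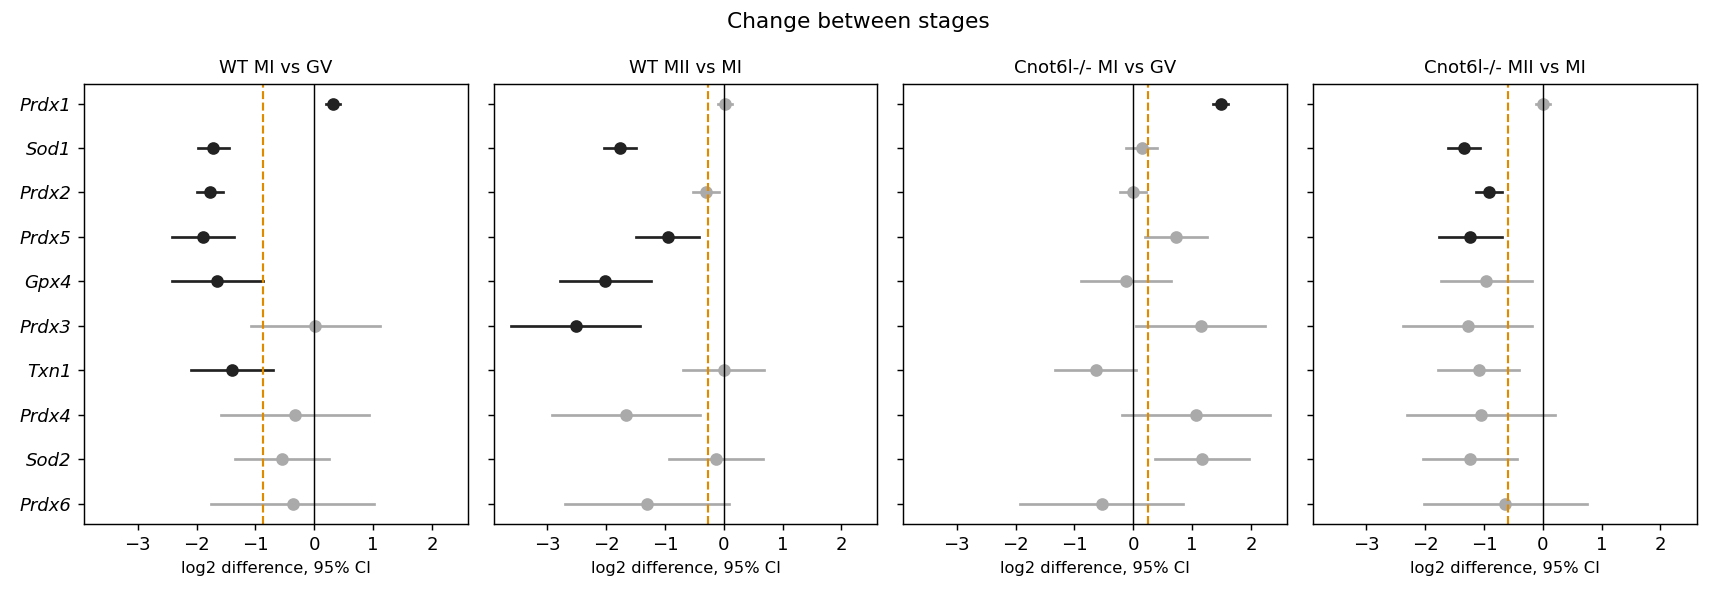
Log2 difference between stages for each gene with its 95% interval from limma, for WT (left pair) and Cnot6l-/- (right pair); black marks an adjusted p below 0.05, grey none, and the dashed line is the median of all tested genes. In WT MI vs GV, Sod1, Prdx2 and Prdx5 lie left of the dashed line and Prdx1 lies to its right; in Cnot6l-/- MI vs GV, Prdx1 alone is black, at 1.48.

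KO oocytes at GV had less Prdx1 and Prdx2 on polysomes than WT oocytes of that stage. Prdx1 was at 2365 and 2397 FPKM in KO against 4177 and 4282 in WT, a log2 difference of -0.83 (SE 0.06, limma adjusted p = 2.6e-05), or 1.78-fold lower. Prdx2 was at 1911 and 2139 against 3276 and 3484, a difference of -0.74 (SE 0.10, limma adjusted p = 0.00357). The libraries of the 2 genotypes did not overlap for either gene. These were 2 of 10 called lower and 0 called higher, where 1.40% of tested genes were called lower and 0.163% higher. At an unadjusted p under 0.05, 4 were lower and 0 higher, beside 844 and 378 of the 11667 tested genes. With median scaling 2 were called lower and 0 higher, against 0.900 and 0.171% (4 and 0 at an unadjusted p under 0.05, beside 608 and 427 genes).

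Both GV calls kept their side with median scaling (-0.73 and -0.64). Neither passed in a limma fit of the GV libraries alone, which called 0 of all tested genes (adjusted p = 0.0959 and 0.125). In that fit 6 members and 1052 of all tested genes were lower at an unadjusted p under 0.05. Without the abundance trend neither passed (limma adjusted p = 0.250 and 0.327). That setting called 11 of all tested genes lower and 6 higher, against 163 and 19 as deposited. Prdx2 was also lost without WT GV replicate 2 (0.0653) or KO GV replicate 1 (0.0515). For Sod1 no difference was called: 2569 and 2975 FPKM in KO stood against 3330.01 and 3283 in WT, -0.26 with a 95% interval of -0.53 to 0.01. Txn1 was a little higher in KO, at 126 and 121 against 99.8 and 91.7, and was not called (0.37, 95% interval -0.32 to 1.06). Gpx4, at 255 and 263 in KO, and Prdx5, at 228 and 324, lay below both WT libraries but were not called (-0.57 and -0.64, adjusted p = 0.676 and 0.335).

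At MI, KO oocytes carried more Sod1, Prdx5 and Prdx2 than WT oocytes as deposited. Sod1 was at 2904 and 3214 FPKM in KO against 900.1 and 1129 in WT, 3.03-fold higher (log2 1.60, SE 0.12, limma adjusted p = 2.4e-05). Prdx5 was at 468 and 431 against 99.5 and 129, 3.94-fold higher (log2 1.98, SE 0.24, limma adjusted p = 4.2e-04). Prdx2 was at 2078 and 1970.3 against 913 and 1074, 2.04-fold higher (log2 1.03, SE 0.10, limma adjusted p = 1.1e-04). The median of all genes was also 1.03 higher in KO at MI, and with median scaling the difference of Prdx2 was 0.00. Prdx2 was still called higher with every library rescaled to the same total (0.38). It was not called with quantile normalization (0.29, limma adjusted p = 0.143). Sod1 stayed higher after median scaling (0.57, adjusted p = 0.0274) and Prdx5 missed the threshold (0.96, adjusted p = 0.0536).

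The direction of Prdx1 at MI depended on the scale, with a call on either side; Prdx3 and Gpx4, which were not called, also changed sign with median scaling (-0.98 and -0.065). It stood at 6549.6 and 6785 FPKM in KO and 5046 and 5515 in WT, higher by 0.34 as deposited (SE 0.06, limma adjusted p = 0.00224) but lower with median scaling (-0.69, adjusted p = 2.9e-05) and with every library rescaled to the same total (-0.31, adjusted p = 0.00720). At MII the pattern was alike: 6750.05 and 6627 in KO against 5140.3 and 5598 in WT, 0.32 as deposited (limma adjusted p = 0.00185) and -0.45 with median scaling (adjusted p = 1.1e-04). Neither higher call passed without the abundance trend (limma adjusted p = 0.275 and 0.336), where 2694 (MI) and 2735 (MII) of all tested genes were called higher. Its share of the set and its ratio to Sod1, which a factor per library does not change, were lower in KO at both stages.

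Sod2 was at 42.6 and 47.0 FPKM in KO MI against 15.7 and 22.6 in WT MI, higher by 1.21 (SE 0.36, limma adjusted p = 0.0314). Txn1 was at 94.7 and 66.0 against 34.0 and 37.35, higher by 1.13 (SE 0.31, limma adjusted p = 0.0238). Neither held after median scaling (0.22 and 0.12), and both were lost on leaving out some libraries. For Sod2 these were WT MI replicate 1 and either KO MI library (adjusted p = 0.124, 0.116 and 0.154), and for Txn1 any one of the 4 MI libraries (0.0547 to 0.163). Gpx4, at 255 and 222 against 115 and 129.9, did not overlap WT but was not called (0.96, adjusted p = 0.0626); it passed in a fit of the MI libraries alone (0.0251) and without WT MII replicate 1 (0.00228) or 2 (0.00252). Prdx3, Prdx4 and Prdx6 overlapped between genotypes. In all, 6 of 10 were called higher and 0 lower, against 27.9 and 0.463% of tested genes. At an unadjusted p under 0.05, 7 were higher and 0 lower, beside 4910 and 100 of the 11667 tested genes. With median scaling 1 was called higher and 1 lower, against 1.88 and 2.83%.

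At MII Sod1, Gpx4 and Prdx5 were higher in KO than in WT. Sod1 was at 1191 and 1225 FPKM in KO against 320.2 and 275 in WT, 4.06-fold higher (log2 2.02, SE 0.12, limma adjusted p = 1.3e-06). Gpx4 was at 126 and 117 against 18.1 and 47.5, 4.03-fold higher (log2 2.01, SE 0.35, limma adjusted p = 0.00179), but 2.53-fold without WT MII replicate 1 and 6.41-fold without replicate 2. Prdx5 was at 198 and 184 against 67.1 and 49.97, 3.26-fold higher (log2 1.70, SE 0.24, limma adjusted p = 4.7e-04). These 3 were also called higher after median scaling, by 1.25, 1.26 and 0.94 (adjusted p = 7.8e-05, 0.0240 and 0.0178).

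Prdx2 at MII, with 1016 and 1147 FPKM in KO and 789.6 and 826.5 in WT, was higher as deposited (0.42, limma adjusted p = 0.0103) but lower after median scaling (-0.35, adjusted p = 0.0246), and was not called without KO MII replicate 2 (0.0873). Prdx3 was at 42.4 and 47.6 against 35.1 and 8.99 and was not called (1.27, adjusted p = 0.0799); without WT MII replicate 1 it was (2.202, adjusted p = 7.4e-04). Txn1, Sod2, Prdx4 and Prdx6 overlapped between genotypes, and for Txn1 the interval of the difference was -0.65 to 0.73. Thus 5 of 10 were called higher and 0 lower, against 25.4 and 3.20% of tested genes (6 and 0 at an unadjusted p under 0.05), and with median scaling 3 higher and 2 lower, against 14.5 and 10.4%. A limma fit of the MII libraries alone called 2 of the 10 and 1365 of all tested genes higher, and lost Gpx4 (adjusted p = 0.115). The comparisons at MI and MII do not share libraries with each other, but each shares its libraries with the stage comparisons.

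**Figure D4:**
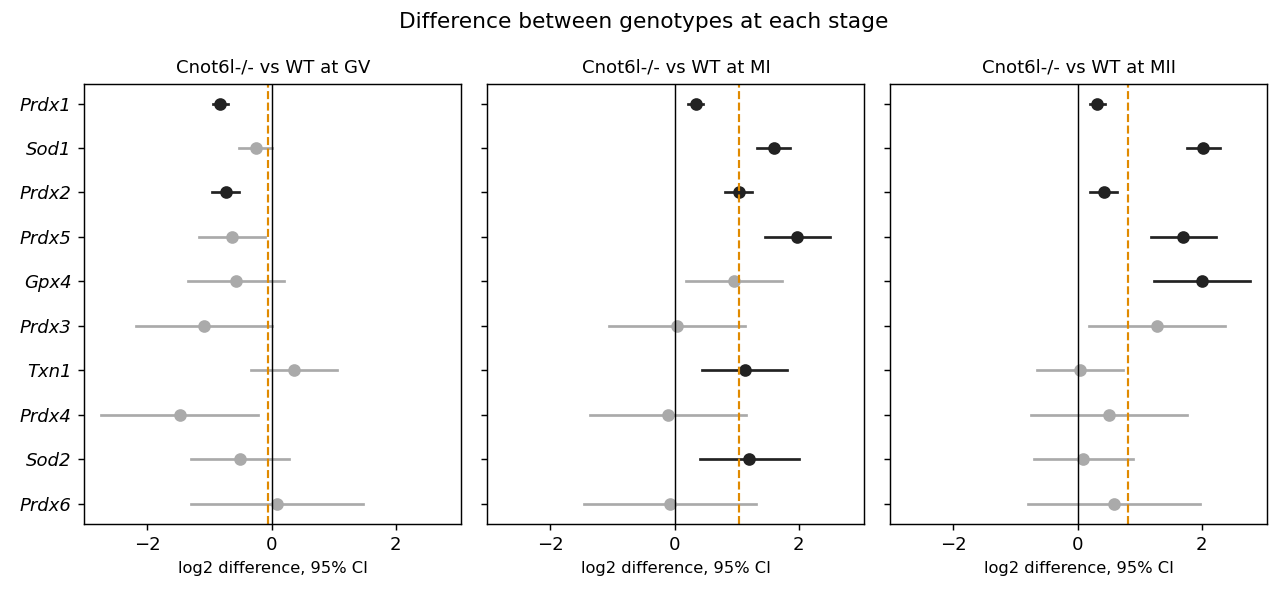
Log2 difference of Cnot6l-/- minus WT for each gene at GV, MI and MII, with 95% intervals from limma; black marks an adjusted p below 0.05, and the dashed line is the median of all tested genes. At MII Sod1, Gpx4 and Prdx5 lie right of the dashed line (2.02, 2.01 and 1.70 against 0.81), while Prdx1 and Prdx2 lie between it and 0, higher as deposited but lower after median scaling (-0.45 and -0.35).

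Within KO oocytes, the step from GV to MI left most of these transcripts on polysomes as deposited. Prdx1 rose from 2365 and 2397 to 6549.6 and 6785 FPKM, by 1.48 (SE 0.06, limma adjusted p = 3.6e-08; 1.19 after median scaling). It was the only member called of 10, with 0 called lower, against 8.89% of tested genes higher and 1.35% lower (4 and 0 at an unadjusted p under 0.05). Prdx2 (difference 0.00, 95% interval -0.22 to 0.22) and Sod1 (0.14, -0.12 to 0.41) were level as deposited. With every library rescaled to the same total they were called lower (-0.62 and -0.48), as was Txn1 (-1.25, limma adjusted p = 0.0412). Quantile normalization also called Prdx2 and Sod1 lower (-1.03 and -1.04). Gpx4 had 255 and 263 FPKM in KO GV and 255 and 222 in KO MI (-0.12, 95% interval -0.90 to 0.65). With median scaling Prdx1 was again the only member called (at an unadjusted p under 0.05, 2 members were lower; 4.86% of tested genes were called higher and 1.86% lower). Prdx3, at 41.9 and 57.85 in KO GV and 119 and 103 in KO MI, was not called (1.15, adjusted p = 0.213) but passed without WT MII replicate 1 (0.0171) or 2 (0.0151).

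As deposited, the calls of a fall came in the next step. From MI to MII in KO, Sod1 fell from 2904 and 3214 to 1191 and 1225 FPKM, by 1.34 (SE 0.12, limma adjusted p = 1.3e-04). Prdx2 fell from 2078 and 1970.3 to 1016 and 1147, by 0.91 (SE 0.10, limma adjusted p = 4.6e-04), and Prdx5 from 468 and 431 to 198 and 184, by 1.23 (SE 0.24, limma adjusted p = 0.0119). Of these, Sod1 alone was called lower after median scaling (-0.71, adjusted p = 0.0199), and Prdx5 lost its call without any one of the 4 KO MI and MII libraries (adjusted p = 0.0596 to 0.111). Prdx1 held its level, with a difference of 0.00 (95% interval -0.12 to 0.13). The 3 called lower of 10, with 0 higher, stand against 7.18 and 0.163% of tested genes. At an unadjusted p under 0.05, 7 were lower and 0 higher, beside 2440 and 56 of the 11667 tested genes. With median scaling 1 was called lower and Prdx1 higher (0.566 and 0.943% of tested genes). Without WT MII replicate 1 or 2, 7 were called lower, while the lower calls over all tested genes went from 838 to 1563 and 1556. Without the abundance trend limma called none of the 10 and 3 of all tested genes lower (7 and 2220 at an unadjusted p under 0.05).

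The stage change from GV to MI differed between genotypes for 5 of the 10 as deposited: Prdx5 (2.62 higher in KO than in WT, SE 0.34, limma adjusted p = 9.3e-04), Sod1 (1.86, adjusted p = 1.1e-04), Prdx2 (1.77, adjusted p = 4.8e-05), Sod2 (1.71, adjusted p = 0.0474) and Prdx1 (1.17, adjusted p = 1.7e-05). Of all tested genes, 14.4% were called in this direction and 0.266% in the other, where the 10 had 0 (also 0 at an unadjusted p under 0.05, beside 102 of all tested genes). With median scaling none of the 10 passed, against 0.591% of tested genes called higher and 0.977% lower: Prdx2 had limma adjusted p = 0.0530, Prdx5 0.0709, Sod1 0.0857, Sod2 0.726 and Prdx1 0.897. At an unadjusted p under 0.05 with that scaling, 3 of the 10 and 753 of the 11667 tested genes were higher. The call for Sod2 was also lost with a pseudocount of 0.1 (adjusted p = 0.0516), with a replicate block (0.0628) and without any one of 9 libraries, all but WT MI replicate 2 and the WT MII libraries (adjusted p = 0.0628 to 0.158), and Gpx4 (1.52, adjusted p = 0.0643) gained one without WT MII replicate 1 or 2 (0.00201 and 0.00221). With median scaling Prdx1 thus rose by nearly the same amount in both genotypes, 1.15 in WT and 1.19 in KO. With quantile normalization it did not: its WT difference was -0.043, and Prdx1 and Prdx2 kept their calls for the genotype difference. With every library rescaled to the same total, Prdx2, Prdx5 and Sod1 kept theirs and Prdx1 did not (0.27, limma adjusted p = 0.107). From MI to MII only Prdx2 was called, with the larger fall in KO (-0.61, limma adjusted p = 0.0281; 3.71% of tested genes were called in this direction and 2.81% in the other). That call was lost under each scaling tried and without either WT GV library, WT MI replicate 1, WT MII replicate 2, either KO MI library or KO MII replicate 1 (adjusted p = 0.0501 to 0.124). No member was called in the other direction (1 at an unadjusted p under 0.05, beside 871 of all tested genes). With median scaling Sod1 was called instead, falling less in KO (0.68, limma adjusted p = 0.0476), and none the other way, against 4.34 and 2.34% of tested genes. At an unadjusted p under 0.05 with that scaling, 1 member and 1009 of all tested genes went the other way. Prdx3 passed without WT MII replicate 1 (2.16, adjusted p = 0.0108) and Gpx4 without WT MII replicate 2 (1.72, adjusted p = 0.00373).

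The other genes of the redox system, 79 found by symbol in 7 lists with 65 tested, give the wider setting. In WT from GV to MI 20 of the 65 were called lower and 1 higher, where 21.7 and 3.06% of all tested genes were. At MI 19 were higher in KO than in WT (27.9% of all tested genes), and at MII 19 were higher and 3 lower (25.4 and 3.20%). With median scaling 5 were called lower and 6 higher from GV to MI in WT, against 5.98 and 8.25% of all tested genes. In KO vs WT with that scaling, 0 were higher and 2 lower at MI (1.88 and 2.83%). At MII 6 were higher and 7 lower (14.5 and 10.4%). The counts by list below are as deposited and stand against the as-deposited shares of all tested genes. None of the higher calls at MI was kept with median scaling. Among partners of thioredoxin, 3 of 10 tested were higher in KO at MI, led by the thioredoxin reductase Txnrd1, at 175 and 191 FPKM against 40.1 and 49.3 (log2 2.02, limma adjusted p = 5.97e-04; not called after median scaling, adjusted p = 0.0547). Srxn1, the sulfiredoxin that repairs overoxidized peroxiredoxins, was listed at 0 in all libraries, and catalase (Cat) was at 4.88 FPKM or less. Among genes of glutathione supply, 7 of 15 were higher in KO at MI and 5 higher and 1 lower at MII. The glutaredoxin Glrx3 was at 17.6 and 23.1 FPKM in KO MII and listed at 0 in both WT MII libraries. The NADPH-producing enzyme G6pdx was at 117 and 98.6 against 27.1 and 60.3 there (log2 1.39, limma adjusted p = 0.00773; 0.163 after median scaling).

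In the 16 tested glutathione transferases, 2 were lower in KO at GV, where 1.40% of all tested genes were. Gstm5 was at 381 and 524 FPKM against 1109 and 1220.5 (log2 -1.38, limma adjusted p = 0.00144), and the microsomal enzyme Mgst3 at 484 and 572 against 838 and 879 (log2 -0.70, limma adjusted p = 0.00227). Of the genes for selenoprotein synthesis, which GPX4 needs, 2 of 7 were higher and 1 lower in KO at MII. After median scaling 2 were higher and 3 lower. The median of the 7 differences was -0.28 as deposited, beside 0.81 over all tested genes. Sephs2 was at 225 and 273 FPKM in KO MII against 449 and 503 in WT MII. The selenocysteine elongation factor Eefsec was at 38.5 and 15.9 FPKM in KO MII against 2.90 and 0.47 in WT MII (log2 3.43, limma adjusted p = 0.00108), and the kinase Pstk at 25.3 and 24.4 against 0 and 6.96 (log2 3.20, limma adjusted p = 0.0117). Of 8 genes listed around the stress regulator NRF2, 3 were higher in KO at MII, 5 were not called, and with median scaling 1 was higher. Among the 3 were the NRF2 gene Nfe2l2, at 40.5 and 45.1 against 0.41 and 7.12 (log2 3.69, limma adjusted p = 0.0374, or 0.0976 after median scaling), and the heme oxygenase Hmox2, at 65.1 and 53.0 against 17.8 and 3.25 (log2 2.74, limma adjusted p = 0.00589). The other heme oxygenase, Hmox1, was at 5.55 FPKM or less in every library. In the same list Nqo1 (25.0 and 37.6 in KO MII against 22.5 and 27.6 in WT MII) and Fth1 (59.1 and 34.0 against 60.9 and 36.4) overlapped between genotypes. Of 6 other peroxidases and dismutases, 3 were higher at MII, among them the secreted peroxidase Gpx3 at 135 and 148 against 35.9 and 67.8 (log2 1.501, limma adjusted p = 0.00598; 0.116 after median scaling). In 3 methionine sulfoxide reductases 1 was, Msra, at 15.6 and 17.1 against 0 and 4.36 (log2 2.90, limma adjusted p = 0.0128).

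Across the 12 libraries, which share their groups and shifts, some members ran closely together on the log2 scale. Sod1, Prdx5, Gpx4 and Prdx2 ran together (Pearson's r of 0.96 for Sod1 with Prdx5, 0.95 for Sod1 with Gpx4 and 0.89 for Sod1 with Prdx2). Txn1 had an r of 0.87 with Prdx2 and 0.78 with Sod1. The r with Sod1 was 0.72 for Prdx6, 0.71 for Prdx3, 0.62 for Sod2 and 0.52 for Prdx4. Prdx1 was not closely like any other member, with r from -0.66 (Txn1) through -0.32 (Sod1) to 0.26 (Sod2). Among all genes at a mean of 5 FPKM or more, those most like Sod1 were Fam160a1, Ehf and Ndufb11, with r of 0.997, 0.996 and 0.995. Ndufb11, a subunit of respiratory complex I, had 1363 and 1484 FPKM in the WT GV libraries, 93.7 and 97.3 in WT MII and 492 and 491.9 in KO MII. Those most like Prdx1 were Eif4a1, a helicase of translation initiation (0.981), Fbxw22 (0.976) and Bpgm (0.975), and those most like Prdx2 were Apoo (0.967), Mrrf (0.964) and Cox5a (0.964). These values describe likeness over 12 libraries and carry no test.

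Some limits touch single genes. Prdx1 overlaps at its 5′ end a transcript on the other strand, AV051173, which was at 0 to 26.4 FPKM, far below Prdx1 in every library; the sources used here do not say whether strand was used in counting. Prdx6b, a close copy of Prdx6, was listed at 0 throughout, and how reads matching several copies were shared is not given in the sources used here, so Prdx6 is uncertain. Prdx4 (12.4 and 34.5 FPKM in KO GV, 11.6 and 37.3 in KO MII) and Prdx6 (15.6 and 37.6 in WT GV, 3.51 and 13.0 in WT MII) differed widely between libraries of 1 group, and neither was called in any of the 9 comparisons as deposited. For the fall from MI to MII in WT, Prdx4 (-1.66, adjusted p = 0.0616) passed without any one of the KO GV or KO MII libraries (0.0345 to 0.0481), and Prdx6 (-1.30, adjusted p = 0.175) without WT MII replicate 1 (-2.12, adjusted p = 0.0357).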

How the data were processed

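Polysome-bound RNA of 12 oocyte libraries was analysed. The authors deposited FPKM per gene in a joint table and in 1 table per library with the same values. Mouse build 9, Cufflinks 2.2.1, Bowtie2 2.1.0, TopHat2 2.0.11 and CASAVA 1.8 are listed, without roles, per the submitters' processing notes. The sources used here do not give annotation or filters. Low FPKM showed no clear steps of whole reads, so depth is unknown.

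Genes averaging at least 1 FPKM over the libraries (11667) were taken as log2(FPKM + 1), and differences are on that scale. limma 3.58.1 (R 4.3.3) fitted 6 group means with empirical Bayes moderation and an abundance trend, 2-sided. Called means a Benjamini-Hochberg adjusted p below 0.05 over all tested genes. The script was tested on simulated data. The members and lists were chosen with earlier results of these data known. All 10 members were named, and from each related list up to 2 called, non-overlapping genes per comparison, of which the text gives a part. Some related genes are named only for a value at or near 0, and Sephs2 for values that went the other way. Alternatives were a pseudocount of 0.1, no filter, 3 scalings, only the groups compared, no abundance trend, a replicate block and leaving out each library. Shares, ratios and 3′ windows were chosen after values were seen and carry no test.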

Additional observations from a re-analysis of the deposited data

Results flagged for a closer look

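The change from GV to MI differed between genotypes, by the limma test of the difference itself, for Prdx1 (1.17, KO minus WT, on the log2 scale), Prdx2 (1.77), Prdx5 (2.62), Sod1 (1.86) and Sod2 (1.71). Prdx2, Prdx5 and Sod1 fell in WT from GV to MI and were not called in KO as deposited (0.00, 0.72 and 0.14), Sod2 was called in neither (-0.55 in WT, 1.16 in KO), and Prdx1 rose in both. The median of all tested genes in the same test was 1.13, and none of the 5 passed after median scaling. Prdx2, Prdx5 and Sod1 still passed with every library rescaled to the same total, and Prdx1 and Prdx2 with quantile normalization. The change from MI to MII differed for Prdx2 (-0.61), at -0.29 in WT (not called) and -0.91 in KO (called); this was lost under each of the 3 scalings.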

How the results depend on the processing

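Counts are of the 10 enzymes called higher or lower. Rescaling to the same total (TPM), median scaling and quantile normalization gave 3, 1 and 2 higher at MI in KO vs WT (6 as deposited) with 1, 1 and 0 lower, and 3, 3 and 3 higher at MII (5) with 0, 2 and 1 lower. Over all tested genes these scalings called 498, 219 and 213 higher at MI (3257 as deposited) and 2078, 1688 and 1267 higher at MII (2967). In WT MI vs GV, lower calls were 3 with median scaling and 3 with quantile normalization (5), and higher calls 0 with quantile normalization (1). In WT MII vs MI all 3 scalings gave 1 higher (0). In KO MI vs GV, TPM gave 3 lower and quantile normalization 2 (0). In KO MII vs MI, TPM and median scaling gave 1 higher (0), and median scaling and quantile normalization 1 lower (3). For the GV to MI difference between genotypes the scalings gave 3, 0 and 2 higher (5), and for MI to MII 0 lower (1), with 1 higher under TPM and median scaling (0). Over all tested genes the same scalings called 1673, 698 and 748 lower in WT MI vs GV (2535) and 1055, 1289 and 1040 higher in WT MII vs MI (663). They called 430, 217 and 375 lower in KO MI vs GV (157), 119, 66 and 80 lower in KO MII vs MI (838), and 113, 69 and 94 higher for the GV to MI difference (1680). A fit of only the groups compared gave 0 lower at GV (2), 2 higher at MII (5), 0 higher in WT MI vs GV (1), 0 lower in WT MII vs MI (4), 5 lower in KO MII vs MI (3) and 0 lower for the MI to MII difference (1). Over all tested genes that fit called, in the same order, 0 (163), 1365 (2967), 249 (357), 0 (1911), 1404 (838) and 296 (433). Without the abundance trend the counts of the 10 were 0, 3, 0, 3, 0 and 0, and those of all tested genes 11, 2735, 228, 1614, 3 and 80. Without the filter the last count of the 10 was 0. With a pseudocount of 0.1 the GV to MI difference had 4 higher (5). With the replicate block WT MII vs MI had 5 lower (4) and the GV to MI difference 4 higher (5); replicate differences of different groups correlated across genes by -0.029 to 0.055, so the numbers were not treated as pairs.

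Leaving out each library in turn gave 1 to 2 lower at GV, 4 to 7 higher at MI, 4 to 6 higher at MII, 3 to 5 lower in WT MI vs GV, 3 to 5 lower in WT MII vs MI, 1 to 2 higher in KO MI vs GV, 2 to 7 lower in KO MII vs MI, 4 to 6 higher for the GV to MI difference, and 0 to 1 higher and 0 to 1 lower for the MI to MII difference. Without WT MII replicate 1 or 2 the counts were 7 in KO MII vs MI and 2 in KO MI vs GV. The count at GV was 1 without WT GV replicate 2 or KO GV replicate 1, and in WT MI vs GV it was 3 without WT GV replicate 1.

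Of 1800 recomputed member differences, 13 changed sign with a call on one side or both. For KO vs WT, Prdx1 was -0.31 (TPM), -0.69 (median scaling) and -0.13 (quantile) at MI and -0.13, -0.45 and -0.30 at MII, and Prdx2 at MII was -0.033 (TPM) and -0.35 (median scaling). Prdx1 in WT MI vs GV was -0.043 with quantile normalization. In KO MI vs GV, Prdx2 was -0.62 (TPM) and -1.03 (quantile) and Sod1 -0.48 and -1.04. Another 64 changed sign with no call on either side, 95 lost a call and 36 gained one. Where 1 library was left out of a group, the other was assumed to vary like the rest. Depth is unknown, so no counting error could be given.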
